A study of Mus musculus with 6 samples.

Results

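The genes described here handle iron in brain tissue: 9 genes for iron storage, transport, sensing and heme breakdown, out of 29872 genes with a value in each library. They are the ferritin chains Fth1 and Ftl1, transferrin (Trf) and its receptor (Tfrc), the iron carriers Slc11a2 and Slc40a1, the ferroxidase Cp, the iron sensor Ireb2 and the heme-degrading enzyme Hmox1. The list follows gene function, but it was chosen by reference to earlier results, with the RPKM differences between the groups of these same libraries known. The differences are therefore given as a description, and the p-values only place the genes among all genes tested. All 9 were found in the files by their gene identifiers. Of these, 7 had a mean of at least 1 RPKM (read counts scaled to gene length and library depth) over the 6 libraries and entered the fit across all genes, and 2, Trf and Slc40a1, did not.

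RNA was sequenced from the hippocampus of C57BL/6 J mice. The shHepaCAM group (3 libraries, genotype HepaCAM knockdown) had Hepacam, which encodes an adhesion molecule of astrocytes, lowered by a short hairpin RNA that an adeno-associated virus carried into the CA1 field on both sides. The shControl group (3 libraries) is given as wild type. Whether the control mice received a vector is not stated in the labels, nor are the promoter, serotype, age or sex. The labels do not tie each library to its own mouse. P-values therefore measure only how far these libraries spread, and that spread may be technical. In whole tissue, fewer cells of a type and less RNA per cell cannot be told apart.

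Values of single libraries are listed in the order of replicates 1, 2 and 3. Between 14903198 and 17341842 reads stood behind each library. Hepacam (ENSMUSG00000046240) was at 37.3, 33.4 and 35.9 RPKM in the controls and at 24.4, 22.6 and 20.9 RPKM after knockdown, with no overlap between the groups. Its log2 change was -0.63 (SE 0.07, limma adjusted p = 0.00924), and it missed the threshold without shControl replicate 3 (0.0533) and without both libraries named next as low in choroid plexus (0.0664). Across all 13864 genes tested, 6.07% passed an adjusted p of 0.05 in limma; 4.23% were higher after knockdown and 1.84% lower. Groups did not overlap for 31.5% of genes, with 20.9% higher and 10.7% lower. Transcripts of the choroid plexus, the secretory tissue that borders the hippocampus, stood apart in shControl replicate 1 and shHepaCAM replicate 3. The summed RPKM of 10 choroid plexus markers was 71.8 and 32.7 in these libraries. In the other 4 it was 4343 and 3726 (shControl replicates 2 and 3) and 2362 and 1723 (shHepaCAM replicates 1 and 2). Leaving out both low libraries therefore does not balance the groups for choroid plexus. The median log2 change of these markers in that fit was -0.86.

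Iron is stored inside ferritin, a hollow shell built of heavy chains, which oxidise the metal, and light chains, which help it settle as a mineral core. Cells take up iron bound to transferrin through the transferrin receptor, move it out of the endosome through Slc11a2 and release it through Slc40a1, known as ferroportin, next to the ferroxidase Cp. In brain, oligodendrocytes and microglia are rich in ferritin, and oligodendrocytes are the main source of transferrin beside the choroid plexus. When iron is scarce, the iron regulatory proteins, of which Ireb2 encodes a member, bind a hairpin in the mRNA called the iron-responsive element. A hairpin in the 5′ UTR blocks translation of the message, and hairpins in the 3′ UTR of Tfrc protect the message from decay.

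These hairpins are shown because they are what several of the 9 genes share beyond their function. The sense strand of every protein-coding transcript of the GENCODE M21 annotation was searched in its UTRs for a C followed by 5 bases of any kind, the loop CAGTGN and 5 more bases, where the 5 bases on either side of the loop had to pair, G with T allowed. Of 21877 genes, 31 (0.142%) held a match in a 5′ UTR and 129 (0.590%) in a 3′ UTR. Among the 9 genes, Fth1, Ftl1 and Slc40a1 each held 1 match in the 5′ UTR, and Tfrc held 4 in the 3′ UTR. The sites follow in DNA letters, 5′ to 3′ along the message, with the loop in capitals.
Fth1 5′ UTR: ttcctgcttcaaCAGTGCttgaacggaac
Ftl1 5′ UTR: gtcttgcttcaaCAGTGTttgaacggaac
Slc40a1 5′ UTR: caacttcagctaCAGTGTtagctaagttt
Tfrc 3′ UTR, the first from the 5′ end: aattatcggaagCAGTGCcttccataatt
Tfrc 3′ UTR, the next: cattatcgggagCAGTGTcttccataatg
Tfrc 3′ UTR, the one after it: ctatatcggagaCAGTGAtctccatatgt
Tfrc 3′ UTR, the last: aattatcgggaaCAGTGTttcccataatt
The sites of the 2 ferritin chains had 26 of 29 bases in common. No match was found in the UTRs of Slc11a2, Trf, Ireb2, Hmox1 or Cp, which says only that this pattern is not in the annotated sequence. A match is a description of the sequence, not a measured binding site.

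The listed values of the ferritin chains, which share this element, went in opposite directions in the knockdown libraries. Fth1 (ENSMUSG00000024661), the heavy chain, was the most abundant of the 9 genes and ranked 10 among all genes by mean RPKM. It stood at 2575, 2605 and 2573 RPKM in the controls, and at 1943, 1800 and 1624 RPKM after knockdown. Every knockdown library lay below every control library, and the control libraries lay close together. The group means were 2584 ± 17.5 and 1789 ± 160 RPKM (SD, n = 3 each), a difference of -30.8%. On the log2(RPKM + 1) scale, used for every log2 change here unless another is named, Fth1 fell by 0.53 (SE 0.10, limma adjusted p = 0.0299 over all genes). Between 23043 and 39115 reads per library stood behind these values.

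Ftl1 (ENSMUSG00000050708), the light chain, was at 22.2, 19.2 and 20.5 RPKM in the controls. After knockdown it was at 27.4, 28.0 and 28.8 RPKM, above all controls. The means were 20.6 ± 1.53 and 28.0 ± 0.71 RPKM (SD, n = 3 each), a difference of 35.9%, and the log2 change was 0.43 (SE 0.07, limma adjusted p = 0.0200). Ftl1 has many near-identical copies: 78.9% of the 50-base windows of its transcript occur unchanged in transcripts of 15 other annotated genes, most of them in Ftl1-ps1. How such reads were counted is not stated in the labels, so the level of Ftl1 is uncertain and may be understated. Only 409 to 632 reads per library were assigned to it. The difference between the groups rests on these reads too, and may not be the same under another way of counting. For Fth1 the share of such windows was 6.59%.

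Within each library, the RPKM of Fth1 divided by that of Ftl1 was 116, 136 and 126 in the controls and 71.0, 64.3 and 56.4 after knockdown. The means were 126 ± 9.96 and 63.9 ± 7.29 (SD, n = 3 each). This ratio does not depend on library scaling. Its groups could not overlap, because every knockdown library was below every control for Fth1 and above every control for Ftl1. The ratio therefore restates these differences and adds no support of its own. Its absolute size and its difference between the groups rest on the uncertain values of Ftl1. It is no measure of the chains' proportion in the cell.

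**Figure D1:**
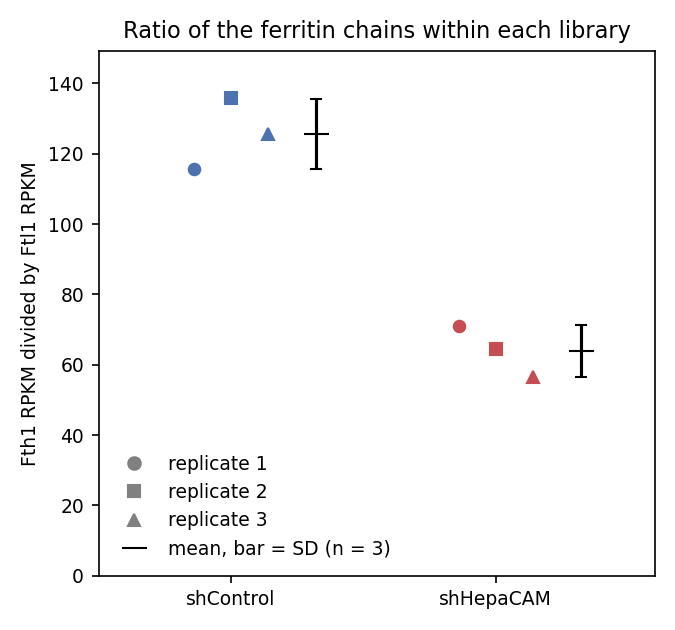
Fth1 RPKM divided by Ftl1 RPKM (vertical axis, from 0) in each library of the shControl and shHepaCAM groups. Symbols are replicates, and the bar is the mean with its SD (n = 3); the knockdown libraries lie between 56.4 and 71.0, all below the controls at 116 to 136.

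Both ferritin calls were lost when certain single libraries were left out, although neither changed direction in any of the 15 alternatives. The calls among all genes fell too, from 842 to 231, 125 and 85 without shControl replicate 1, 2 or 3. Fth1 no longer passed without shControl replicate 1, 2 or 3 (adjusted p = 0.107, 0.131 and 0.130) or without shHepaCAM replicate 3 (0.0722). Its log2 changes in these fits were -0.54, -0.53, -0.54 and -0.47. Ftl1 no longer passed without shControl replicate 2 or 3 (0.0816 and 0.0936) or without shHepaCAM replicate 3 (0.0575), with log2 changes of 0.38, 0.42 and 0.41. With shControl replicate 1 and shHepaCAM replicate 3 both left out, the log2 changes were -0.47 for Fth1 and 0.46 for Ftl1, with adjusted p of 0.181 and 0.0739. Fth1 also missed the threshold under quantile normalization (log2 change -0.41, adjusted p = 0.235), and with no filter on low genes both missed it (0.386 for Fth1 and 0.0507 for Ftl1).

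Markers of other cells moved beside the ferritins. The summed RPKM of 8 microglia markers was 289 to 344 in control and 534 to 639 in knockdown libraries. At the threshold 5 of the 8 were higher, beside 4.23% of all genes. This count was the same after scaling to the median gene and under quantile normalization, and none of the 8 was at 0. Groups did not overlap for 8 of the 8, all higher, beside 20.9% of all genes. The sum of 6 neuron markers was 902 to 940 in control and 559 to 738 in knockdown libraries. At the threshold 2 of the 6, Slc17a7 and Snap25, were lower, beside 1.84% of all genes (2 under quantile normalization, 1 when scaled to the median gene). These 2 made up most of the sum, with means of 355 and 240 RPKM in control and 229 and 150 RPKM in knockdown libraries. Stmn2, Nefl and Syt1 had log2 changes of -0.82, -0.19 and -0.18 and did not pass. For Rbfox3 the groups overlapped (log2 change 0.01, limma adjusted p = 0.922). For 10 oligodendrocyte markers the sums overlapped, at 990.5 to 1241 and 1009 to 1519 RPKM, and 0 of the 10 passed in limma (1 at an unadjusted p under 0.05, 0 in limma-voom). The sums of 8 markers of astrocytes also overlapped, at 825 to 930 and 821 to 901 RPKM. Among these 8, 1 was lower at the threshold, the glutamate transporter Slc1a2 (log2 change -0.37, limma adjusted p = 0.0181), also after scaling to the median gene, under quantile normalization and in limma-voom. It missed the threshold with no filter (0.0542) and without shControl replicate 1, 2 or 3 (0.0686, 0.0867 and 0.0748). Groups did not overlap for 3 of the 8, Slc1a2, Slc1a3 and Aldoc, beside 31.5% of all genes in either direction and 10.7% lower. Each of these 3 had lower values after knockdown, and they were chosen for naming after their values were seen. Slc1a3 and Aldoc did not pass, with log2 changes of -0.09 and -0.25. For the rest of the 8 the groups overlapped. Their log2 changes were 0.29 for Gfap, 0.17 for Fgfr3, 0.15 for Aqp4, 0.12 for Gja1 and -0.48 for Agt. Sums of endothelial markers (58.9 to 74.9 and 62.4 to 80.4) and ependymal markers (21.4 to 42.5 and 16.2 to 38.4) overlapped as well. With shControl replicate 1 and shHepaCAM replicate 3 both left out, 4 microglia markers passed higher, and 0 neuron and 0 astrocyte markers passed lower. The part of these shifts in the ferritin values was not tested.

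**Figure D2:**
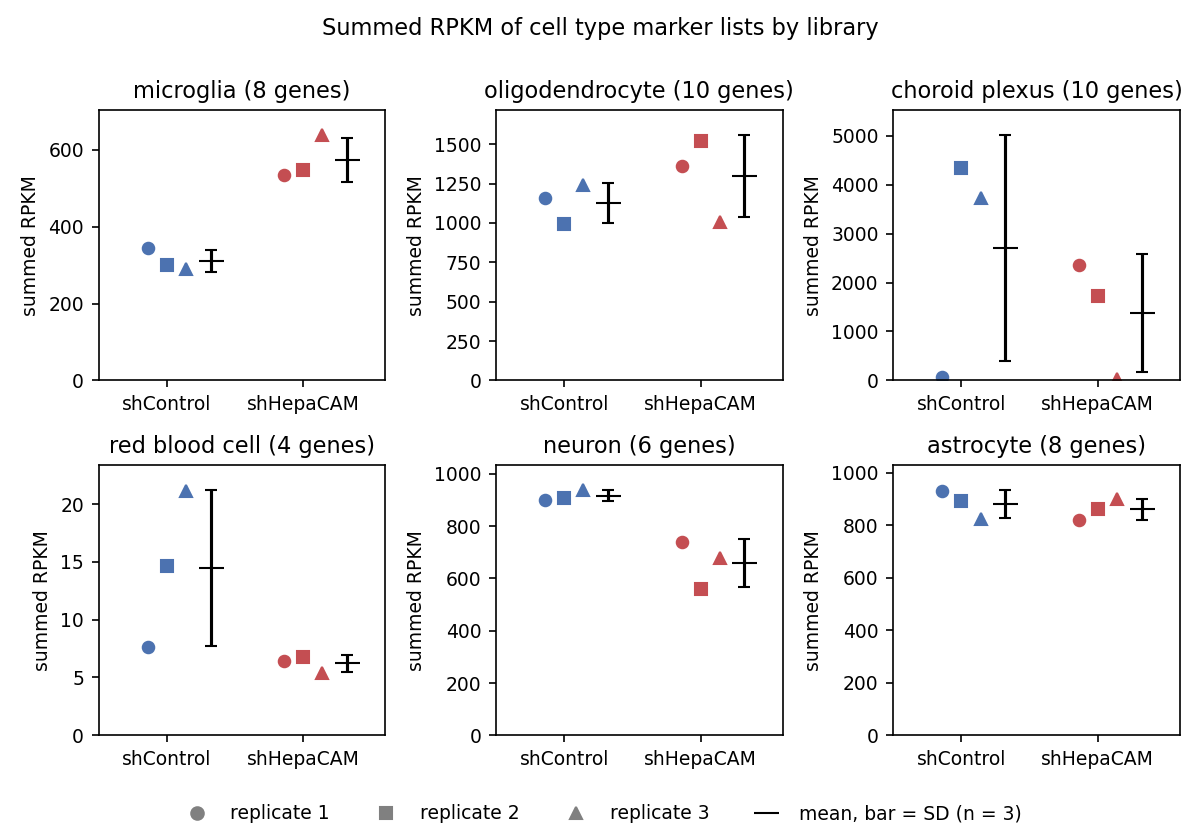
Summed RPKM (vertical axes, from 0) of marker genes of 6 cell types in each library, with the mean and SD (n = 3) of each group as a bar. Microglia sums of knockdown libraries (534 to 639) lie above those of controls (289 to 344), neuron sums lie below, and choroid plexus sums are near 0 in shControl replicate 1 and shHepaCAM replicate 3.

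Of the genes for iron uptake, Tfrc (ENSMUSG00000022797), the receptor whose message carries 4 of the hairpins shown above, differed little. It was at 15.6, 13.5 and 13.4 RPKM in the controls and at 12.8, 13.5 and 13.1 RPKM after knockdown. The groups overlapped, with shControl replicate 1 above the rest. The log2 change was -0.10 (SE 0.07, limma adjusted p = 0.466), with -0.03 without shControl replicate 1, -0.15 under quantile normalization and -0.18 when scaled to the median gene.

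Slc11a2 (ENSMUSG00000023030), which carries iron out of the endosome, was at 9.17, 9.57 and 8.25 RPKM in the controls and at 9.30, 9.84 and 10.1 RPKM after knockdown. The groups overlapped, and the log2 change was 0.10 (SE 0.07, adjusted p = 0.427 in limma). It was 0.05 without shControl replicate 3, 0.05 under quantile normalization and 0.02 when scaled to the median gene. Its isoforms with and without an iron-responsive element cannot be separated in values summed per gene.

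Trf (ENSMUSG00000032554), which encodes the iron carrier of blood and cerebrospinal fluid, was listed near 0, at 0.39, 0.28 and 0.20 RPKM in the controls and 0.23, 0.24 and 0.18 RPKM after knockdown. These values rest on 10 to 22 reads per library. Pooled per group and scaled to depth, 48 control and 35 knockdown reads gave a ratio of 0.745 with an exact 95% interval of 0.467 to 1.18, which covers counting error only. No difference was detectable with so few reads assigned to Trf. Of the 50-base windows of the Trf transcript, 79.8% also occur in Gm20425, an annotated protein-coding gene that lies across it on the same strand and is not analysed here. How reads shared by both were counted is not stated in the labels, so the level of Trf may be understated. The ratio and its interval cover only the reads assigned to it. The same libraries held 990.5 to 1519 summed RPKM of oligodendrocyte markers.

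Iron leaves cells through Slc40a1 (ENSMUSG00000025993). Its values were 0.99, 0.92 and 0.76 RPKM in the controls and 1.09, 1.01 and 0.93 RPKM after knockdown. The groups overlapped, and the mean over all libraries lay just under the filter of 1 RPKM. With 398 control and 438 knockdown reads, the ratio was 1.12 (exact 95% interval 0.979 to 1.29, counting error only). In a fit with no filter, the log2 change was 0.09 with a limma adjusted p of 0.736.

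Cp (ENSMUSG00000003617), or ceruloplasmin, oxidises iron so that transferrin can bind it, and in brain astrocytes carry a membrane-bound form. It was low, at 1.33, 1.29 and 1.24 RPKM in the controls, and at 1.84, 2.33 and 1.52 RPKM after knockdown. All knockdown libraries lay above all controls, and the spread was wider among them (1.90 ± 0.41 against 1.29 ± 0.04 RPKM, SD, n = 3 each). Its log2 change of 0.33 (SE 0.13, adjusted p = 0.179 in limma) did not pass. The pseudocount understates the change of so low a gene: with a pseudocount of 0.1 it was 0.51, and in limma-voom on whole reads 0.53 (adjusted p = 0.180 and 0.0824). Among the knockdown libraries, the lowest Cp value was that of shHepaCAM replicate 3, which was low in choroid plexus transcripts, while the highest control value was that of shControl replicate 1, which was low in them too. With both left out, the log2 change was 0.44 (adjusted p = 0.223). Cp overlaps the annotated gene Hps3 on the opposite strand, and the strand setting of the counting is not stated, so reads of the pair may not be told apart.

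The iron sensor Ireb2 (ENSMUSG00000032293) was at 5.78, 5.61 and 6.09 RPKM in the controls and at 5.90, 7.16 and 6.07 RPKM after knockdown. Only shHepaCAM replicate 2 lay above the control libraries. The log2 change was 0.11 (SE 0.09, limma adjusted p = 0.480), with 0.03 without that library, 0.03 under quantile normalization and 0.03 when scaled to the median gene.

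Hmox1 (ENSMUSG00000005413), the inducible heme oxygenase, splits heme into iron, carbon monoxide and biliverdin. It was at 5.74, 6.42 and 4.60 RPKM in the controls and at 7.62, 7.04 and 8.54 RPKM after knockdown. All knockdown values lay above all control values, with means of 5.59 ± 0.92 and 7.73 ± 0.75 RPKM (SD, n = 3 each), a difference of 38.4%. The log2 change of 0.41 (SE 0.12) missed the threshold (adjusted p = 0.0917 in limma) and did so in all 15 alternatives, with adjusted p from 0.0741 to 0.270. Between 120 and 245 reads per library stood behind these values. Beside Hmox1, which microglia and macrophages can induce, stand the microglia sums given above. The sums of 6 markers of border macrophages overlapped, at 1.90 to 2.46 RPKM in control and 2.29 to 3.41 RPKM in knockdown libraries. Of these 6, 0 were tested, because their means lay under the filter. The summed RPKM of 4 hemoglobin genes of red blood cells, a source of heme, was 7.63 to 21.2 in control and 5.37 to 6.80 in knockdown libraries, without overlap. Of these genes, 0 of 3 tested passed (limma adjusted p = 0.150 for Hba-a1, 0.215 for Hbb-bs and 0.146 for Hbb-bt). With shControl replicate 1 and shHepaCAM replicate 3 both left out, 1 hemoglobin gene passed lower, beside 17 among all genes. Groups overlapped for Hbb-bs and for Hba-a2, which was not tested. The part of microglia, border macrophages and red blood cells in the Hmox1 values was not tested.

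**Figure D3:**
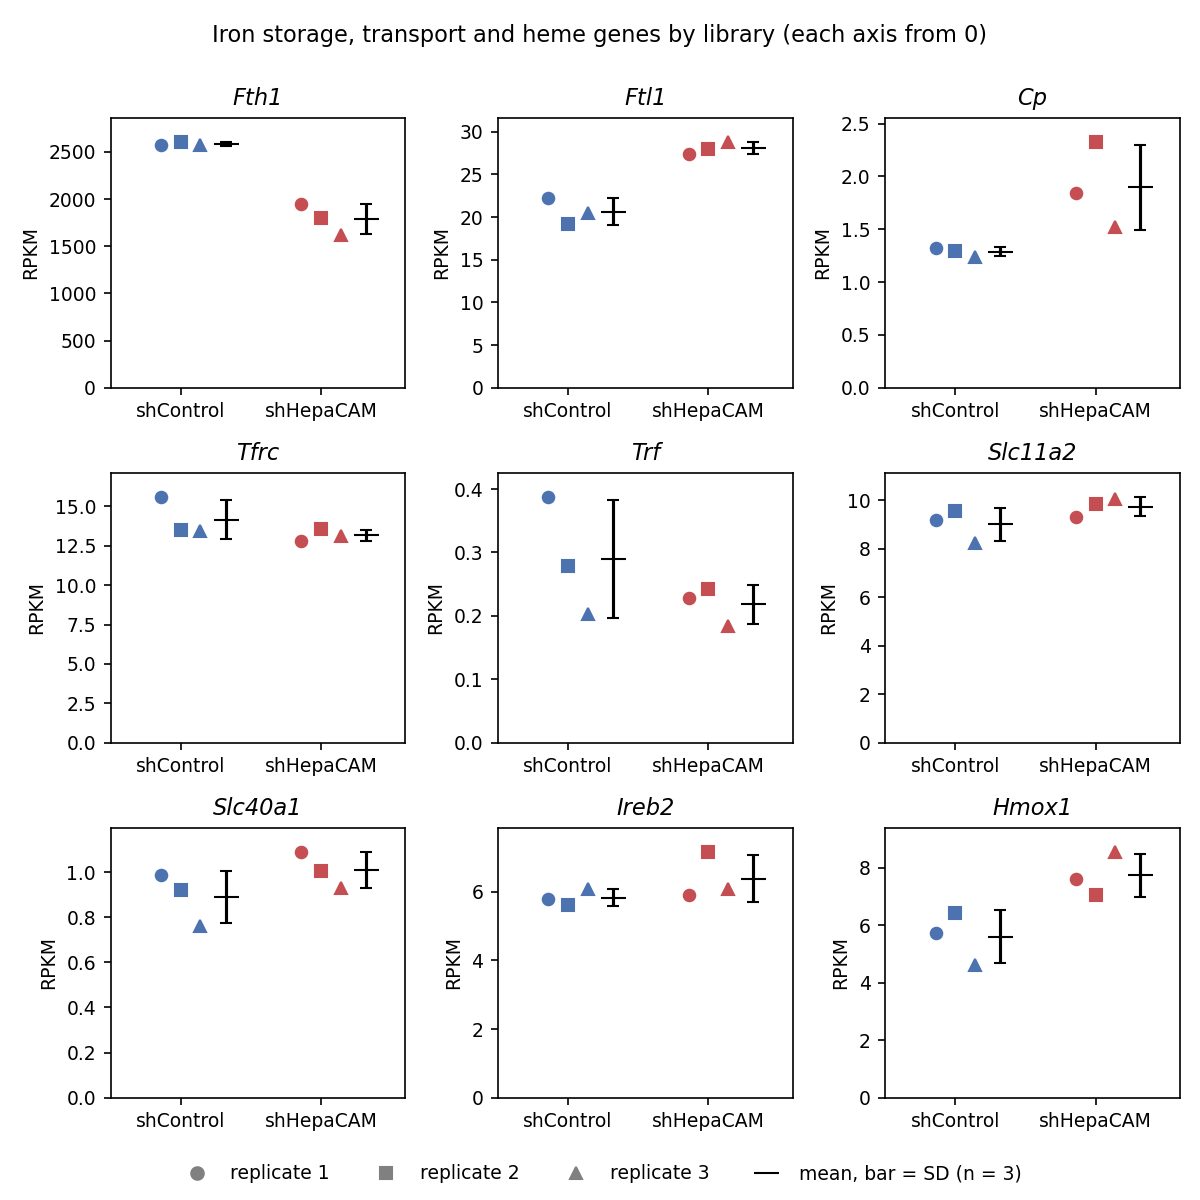
RPKM (vertical axes, each from 0) of the 9 iron storage, transport and heme genes in the shControl and shHepaCAM libraries; symbols are replicates and the bar is the mean with its SD (n = 3). Groups do not overlap for Fth1 (lower in knockdown) and for Ftl1, Cp and Hmox1 (higher), and overlap for the other 5.

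Of the 7 genes tested, 1 passed higher and 1 lower, beside 4.23% and 1.84% of all genes, and 4 had groups that did not overlap (3 higher, 1 lower), beside 31.5% of all genes (20.9% higher, 10.7% lower). Nothing is read from these shares, because the genes were chosen with this contrast known. The median log2 change of the 7 was 0.11, and that of all genes tested 0.05. No direction of the 7 changed when libraries were scaled to their median gene or quantile normalized.

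**Figure D4:**
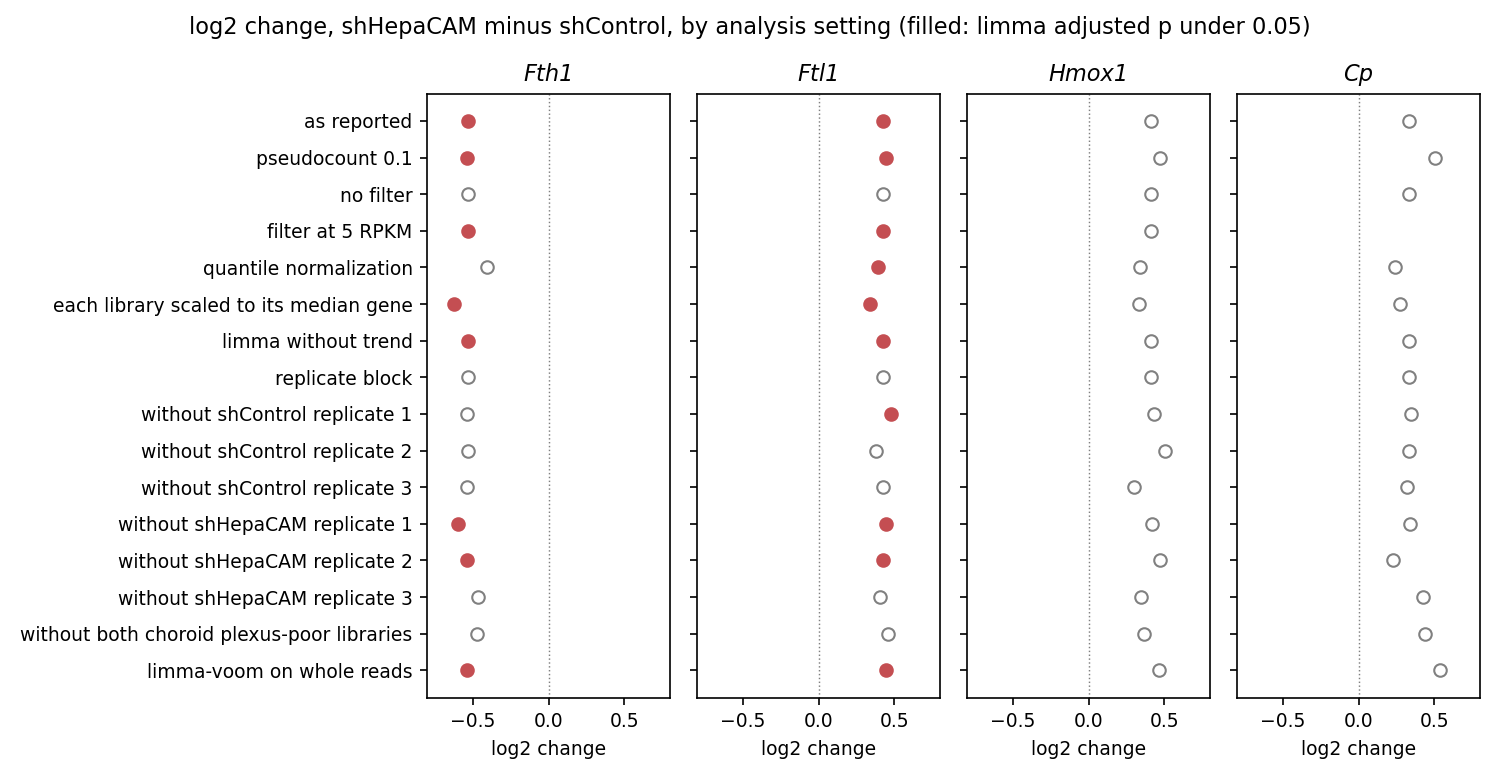
Log2 change, shHepaCAM minus shControl (horizontal axes), of Fth1, Ftl1, Hmox1 and Cp as reported and under each alternative (rows), of RPKM + 1 except in the rows for a pseudocount of 0.1 (RPKM + 0.1) and for limma-voom (log2 counts per library size); filled points have a limma adjusted p under 0.05. Fth1 lies below 0 and the other 3 above 0 in every setting, while Fth1 and Ftl1 are filled in 7 and 9 of the 15 alternatives; Cp has no value with the filter at 5 RPKM.

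A wider set of genes around iron and heme, listed by function, holds 75 genes, of which 74 were in the files and 59 were tested. Of these, 1 rose and 1 fell, which is 3.39% beside 6.07% of all genes, and 18 (30.5%) had groups that did not overlap beside 31.5%. Their median log2 change was 0.01. Both shares lie close to or below those of all genes.

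Slc11a1 was the gene that rose. It encodes a metal transporter of phagosomes in microglia and macrophages, and it was 1 of 13 tested genes of iron uptake, export, chaperones and mitochondrial import. It was at 1.74, 1.57 and 1.23 RPKM in the controls and at 4.15, 4.45 and 4.71 RPKM after knockdown. Every knockdown library was above every control library, with means of 1.51 ± 0.26 and 4.44 ± 0.28 RPKM (SD, n = 3 each). The log2 change was 1.12 (SE 0.11, limma adjusted p = 0.0052), and it passed in all 14 alternatives that tested it. Microglia marker sums were higher in the same libraries, as given above, and their part in this value was not tested. The median of the 13 was 0.12.

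Isca2, a carrier protein of mitochondrial iron-sulfur cluster assembly, was the gene that fell, among 13 tested genes of that process. Its values were 15.6, 15.1 and 14.9 RPKM in the controls and 11.1, 9.41 and 10.5 RPKM after knockdown, with no overlap. The means were 15.2 ± 0.35 and 10.3 ± 0.85 RPKM (SD, n = 3 each), and the log2 change was -0.52 (SE 0.07, limma adjusted p = 0.0141). The call was lost without shControl replicate 1, 2 or 3 (adjusted p = 0.0534, 0.0665 and 0.0657) and with shControl replicate 1 and shHepaCAM replicate 3 both left out (0.0899). The median of the 13 was -0.03.

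In heme synthesis, 0 of 8 tested genes passed in limma, 1 had an unadjusted p under 0.05 and 0 passed in limma-voom, with a median of 0.05 (-0.03 when scaled to the median gene). The smallest p was that of Alas1, the rate-limiting enzyme of the pathway outside red cells. It was at 9.63, 9.70 and 9.21 RPKM in the controls and at 11.4, 11.5 and 10.98 RPKM after knockdown, without overlap (log2 change 0.23, SE 0.06, limma adjusted p = 0.0676; 0.15 when scaled to the median gene). Among 9 tested genes of heme transport, binding and breakdown, 0 passed, 3 had an unadjusted p under 0.05 and 0 passed in limma-voom, with a median of -0.05. Blvrb, a biliverdin reductase that acts after heme oxygenase, had the smallest p. Its values were 1.91 to 2.31 RPKM in the controls and 2.76 to 3.59 RPKM after knockdown (log2 change 0.38, SE 0.11, limma adjusted p = 0.0961).

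The factor Nfe2l2, or Nrf2, drives transcription of Hmox1 and of both ferritin chains under oxidative stress, and its list held 10 tested genes. In limma 0 passed, 2 had an unadjusted p under 0.05 and the median was 0.08 (-0.0038 when scaled to the median gene); in limma-voom 1 passed, Nfe2l2 itself. Nfe2l2 was at 4.97, 5.23 and 6.31 RPKM in the controls and at 7.98, 8.62 and 6.96 RPKM after knockdown, without overlap. Its log2 change was 0.45 (SE 0.11) with a limma adjusted p of 0.0558, and it passed with a filter at 5 RPKM (0.0438) and in limma-voom (0.0366). Of the 6 tested genes of iron sensing and the hepcidin axis, 0 passed in limma, 0 had an unadjusted p under 0.05 and 0 passed in limma-voom. Epas1, a hypoxia-inducible factor, had the smallest p there, at 31.4, 31.9 and 28.0 RPKM in the controls and 26.6, 32.0 and 22.6 RPKM after knockdown (log2 change -0.18, SE 0.12, limma adjusted p = 0.422). That change was -0.06 without shHepaCAM replicate 3, -0.30 without shHepaCAM replicate 2 and -0.03 with shControl replicate 1 and shHepaCAM replicate 3 both left out.

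**Figure D5:**
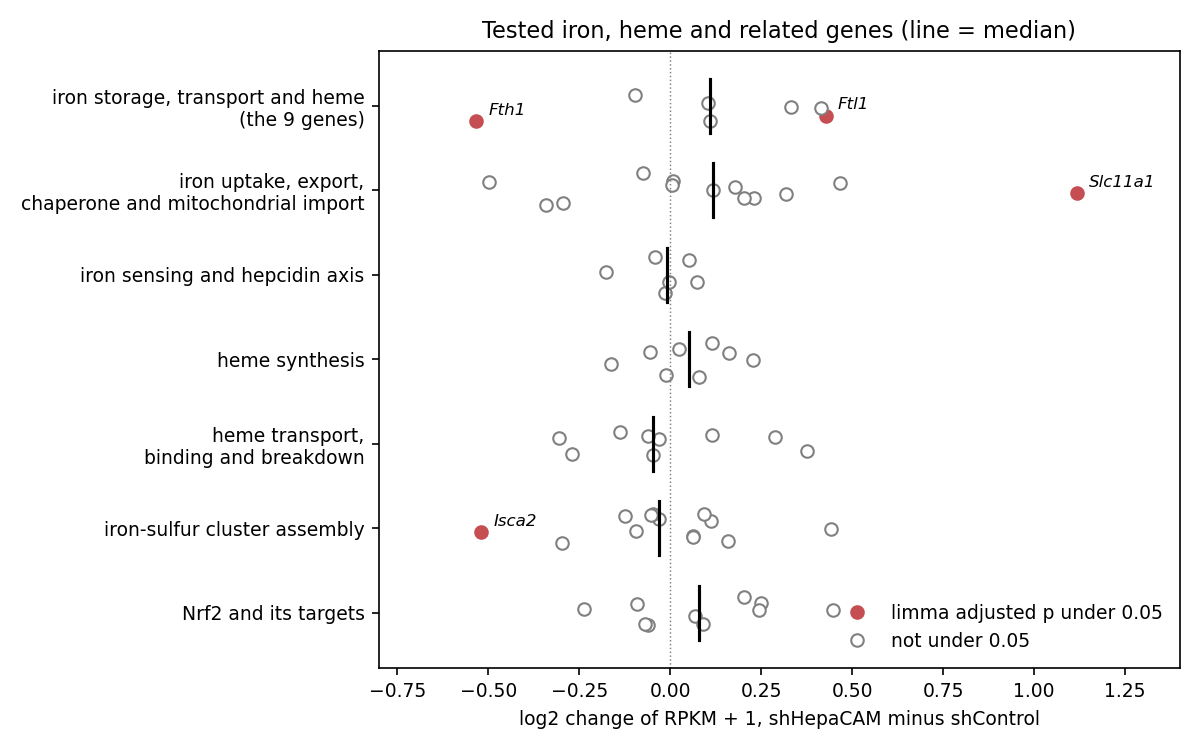
Log2 change of RPKM + 1, shHepaCAM minus shControl (horizontal axis), of each tested gene of the 9 iron genes and of 6 lists of related genes (rows, points spread vertically for legibility). Filled points passed a limma adjusted p of 0.05 and the line is the list's median; Fth1, Ftl1, Slc11a1 and Isca2 are filled.

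For the 2 ferritin chains, the genes of most similar pattern were taken as those with the smallest root mean square difference of z-scored log2(RPKM + 1) over the 6 libraries. Nearest to Fth1 were Upp2 (0.028) and Rprd1b (0.038), with log2 changes of -0.38 and -0.14. Both are low genes, whose change this scale understates: the mean of Upp2 was 3.62 RPKM in the controls and 2.56 RPKM after knockdown, and that of Rprd1b 4.59 and 4.06 RPKM. Nearest to Ftl1 were Ncf1 (0.050), with a log2 change of 0.50, and H2-K1 (0.057), with 1.29, whose reads can be shared with other class I genes.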

How the data were processed

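The deposited values are RPKM, 1 file per library; no header names the unit, which was read from the values. The submitters' processing notes name build mm39, Bowtie2 2.0.6 and TopHat2 2.0.12; which counter and annotation the authors used, and how they treated strand and multiply mapping reads, the sources used here do not give. GENCODE M21, which is on another build, served for symbols (29805 of 29872 identifiers), exon lengths and transcript sequences, so no coordinate is given. Depth and reads per gene were worked out from the steps between low RPKM values: for 99.3% of genes, all libraries gave whole reads to within 0.01, most with the annotated exon length and Fth1 with a length of its own. This recovery and the fit were tested on simulated data. The libraries differ from each other: even the most alike pair had a chi-square per degree of freedom of 4.09, above sampling noise.

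Groups and replicate numbers came from the titles. Groups were compared in R 4.3.3 by limma 3.58.1, with its trend option, on log2(RPKM + 1) of 13864 genes whose mean reached 1 RPKM, with Benjamini-Hochberg adjustment over all of them at 0.05. This scale understates the change of low genes. Counts of genes at an unadjusted p under 0.05 are given without the share of all genes at that level, so nothing is read from them. The 9 genes, the 6 lists of related genes, the 9 marker lists and the alternatives were chosen with earlier results of these data known. Named beside the 9 are Hepacam and, of each related list, the genes past the threshold (at most 4) or, where none passed, that with the smallest p; and for each of the 9 past the threshold, the 2 genes of most similar pattern. Figures were drawn with matplotlib 3.10.9.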

Additional observations from a re-analysis of the deposited data

How the results depend on the processing

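The number of genes called, 842 as reported, was 169 with no filter, 157 with a replicate block, 121 with shControl replicate 1 and shHepaCAM replicate 3 both left out, and 85 to 880 with single libraries left out. The split of 587 higher and 255 lower became 336 and 347 after scaling to the median gene and 390 and 341 with quantile normalization. Of the 9 iron genes, 2 were called as reported, and 0 with no filter, with the replicate block or without both those libraries. With quantile normalization 1 was called, and with single libraries left out 0 to 2. Where 0 were called in limma, 2 to 4 had an unadjusted p under 0.05. No share of all genes at that level is given, and the 9 were chosen with this contrast known. Nothing is therefore read from that count. Of the related genes, 2 were called as reported, 1 (Slc11a1) with the replicate block, 1 (Slc11a1) without both those libraries and 1 to 3 with single libraries left out. The cause of these changes was not tested. No log2 change of Hepacam, of the 7 tested iron genes or of the 6 related genes named changed sign. Isca2 had an adjusted p of 0.0555 with the replicate block, where Fth1 had 0.118 and Ftl1 0.0741. Same-numbered libraries did not deviate together (correlations of -0.21, 0.02 and -0.14 for numbers 1, 2 and 3), so the replicate numbers were not taken to pair them. Values for Trf rest on 10 to 22 reads per library, which limits what can be said of it. Slc40a1 had 102 to 155 reads per library and was left out of the fit because its mean lay under 1 RPKM.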
